A study of Drosophila melanogaster with 2 samples.

Results

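The peaks described here are 1324 sites where GFP-tagged Dif was found at fly promoters that point in 1 direction and hold no GA repeat. They were taken from the 4175 peaks that passed the authors' threshold on the irreproducible discovery rate (IDR), which scores how alike the replicates rank each peak. A peak was a member when its summit lay within 500 bp of start sites of protein-coding genes on 1 strand only, and when the sequence within 100 bp of the summit had no GA run of 7 or more bases. A GA run is a stretch of strictly alternating G and A that begins and ends with G, read on either strand. Members made up 31.7% of the IDR list (exact Clopper-Pearson interval 30.3% to 33.1%), 57.5% of its 2301 peaks near a protein-coding start site, and 64.2% of its 2061 peaks with start sites on 1 strand. The comparison classes were the 737 one-strand peaks with a GA run, the 240 peaks at divergent promoters, with start sites on both strands, and 5068 weaker peaks of the pooled list that met the same rule but were outside the IDR list.

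Chromatin immunoprecipitation with sequencing was done on Drosophila melanogaster of the transgenic line Dif-GFP, which stably expressed Dif with GFP at its C terminus. The animals were whole wandering larvae of the third instar, of unknown age, males and females pooled, and the antibody was against GFP. The design is 1 group with biological replicates 3 and 4, so the data allow a description of sites and of the agreement of 2 replicates, and no test between conditions. No untagged line, other stage or immune challenge is among the samples, whole larvae mix all tissues, and the libraries of a possible control experiment that the labels name were not used here.

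Dif is an NF-κB protein of the fly. In the Toll pathway a cleaved ligand, Spätzle, binds the receptor Toll, adaptors such as Myd88 pass the signal on, the inhibitor Cactus is degraded, and Dif and its relative Dorsal enter the nucleus and act on genes for antimicrobial peptides. NF-κB proteins bind κB sites, which start with G bases and end with C bases. Fly promoters fall into broad types. Developmentally regulated genes often have GA repeats, which GAGA factor and CLAMP bind, and a focused start site with an initiator. Broadly expressed genes often have Motif 1, which M1BP binds, or the DRE, which DREF binds. Wandering larvae are at the end of larval growth, when the steroid hormone ecdysone drives the start of metamorphosis.

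The summits of the strongest members differed in sequence from one another. The following stretches of 61 bases are centred on the summit and read 5′ to 3′ on the strand of the gene, from the Release 6 assembly (dm6). All printed stretches lie outside annotated UTRs. The first 5 show the strongest members that allow this, with GAGAG, the longest GA run the rule allows, in capitals on either strand (CTCTC on the other strand); those of Coq2, CG33169 and Nepl8 hold none.
Coq2 (chr3R:8316907-8316967, minus strand): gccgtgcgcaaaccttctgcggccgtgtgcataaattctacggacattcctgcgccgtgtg
CG33169 (chr3L:22863759-22863819, plus strand): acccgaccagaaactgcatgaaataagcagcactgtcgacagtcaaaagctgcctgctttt
CG31522 (chr3R:4453356-4453416, minus strand): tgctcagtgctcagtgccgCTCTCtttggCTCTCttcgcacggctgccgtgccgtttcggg
Nepl8 (chr2L:16487734-16487794, plus strand): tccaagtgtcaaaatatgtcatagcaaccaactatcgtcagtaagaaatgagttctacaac
Mrp4 (chr3R:11569111-11569171, plus strand): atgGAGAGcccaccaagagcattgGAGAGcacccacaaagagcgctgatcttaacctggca

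The next stretches show the GA word AAGAGAGC, the 8-base word that differed most in share between member summits and their flanks, in capitals on either strand (GCTCTCTT on the other). The last of them, mura, is no member: it is the strongest one-strand peak with a GA run of 7, the shortest run the rule refuses, and its run is in capitals.
rhea (chr3L:8546558-8546618, plus strand): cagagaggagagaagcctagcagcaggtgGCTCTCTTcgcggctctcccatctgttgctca
sima (chr3R:30099393-30099453, plus strand): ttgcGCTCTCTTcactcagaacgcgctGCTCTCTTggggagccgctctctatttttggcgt
CG9932 (chr2L:13060258-13060318, minus strand): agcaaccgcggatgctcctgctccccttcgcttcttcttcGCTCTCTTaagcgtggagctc
mura (chr3R:9550836-9550896, minus strand): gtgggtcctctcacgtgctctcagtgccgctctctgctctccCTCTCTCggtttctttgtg

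Other members held matches to core promoter elements, repeats or κB sites. The stretches below show, in capitals, Motif 1 core at Dbp73D, the DRE at Dpm3 and CG9915, and an initiator match at bark. They also show a CA repeat at Mnt, and a broad κB match at LpR2, RpS4 and CG4374. The annotated start site of bark lies downstream of its printed stretch, so the match there does not span it.
Dbp73D (chr3L:16730838-16730898, minus strand): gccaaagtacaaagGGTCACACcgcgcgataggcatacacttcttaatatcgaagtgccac
Dpm3 (chr3R:13403298-13403358, minus strand): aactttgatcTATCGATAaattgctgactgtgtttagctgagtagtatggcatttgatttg
CG9915 (chrX:16313163-16313223, minus strand): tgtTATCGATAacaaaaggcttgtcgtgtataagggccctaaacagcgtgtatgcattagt
bark (chr2L:3787083-3787143, plus strand): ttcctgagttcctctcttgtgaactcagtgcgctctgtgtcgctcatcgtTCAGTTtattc
Mnt (chrX:3689247-3689307, plus strand): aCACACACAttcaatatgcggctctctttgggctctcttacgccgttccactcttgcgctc
LpR2 (chr3R:25740577-25740637, minus strand): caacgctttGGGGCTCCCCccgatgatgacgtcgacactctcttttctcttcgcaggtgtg
RpS4 (chr3L:13041651-13041711, plus strand): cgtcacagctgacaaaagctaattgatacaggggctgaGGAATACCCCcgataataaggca
CG4374 (chr3R:23472715-23472775, minus strand): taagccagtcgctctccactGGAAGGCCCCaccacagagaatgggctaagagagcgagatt

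Member summits gathered at the start site. The median summit lay 22 bp upstream of the nearest protein-coding start site, at -22 bp, with quartiles at -92 and 31 bp, and 60.1% lay upstream (Wilson interval 57.5% to 62.7%). Within 50 bp lay 580 members (43.8%, 41.2% to 46.5%), and 1098 (82.9%) lay within 200 bp. One-strand peaks with a GA run lay farther upstream: their median was -80 bp, 76.5% (73.3% to 79.4%) were upstream and 18.3% (15.7% to 21.3%) were within 50 bp. Peaks at divergent promoters had a median of -8 bp and 62.9% within 50 bp. Weaker peaks of the same rule were the most spread, with a median of 18 bp and 25.1% (23.9% to 26.3%) within 50 bp. All such intervals are at the 95% level and cover counting error only, not the spread between replicates.

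Position also varied inside the class with the length of the GA run that was left. The 665 members with a run of 5 had a median position of -43 bp and 67.8% upstream. The 659 members with a run of 3 or none had a median of -6 bp and 52.4% upstream. Members with the longer run thus lay between the rest of the class and the peaks that the rule refused.

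**Figure D1:**
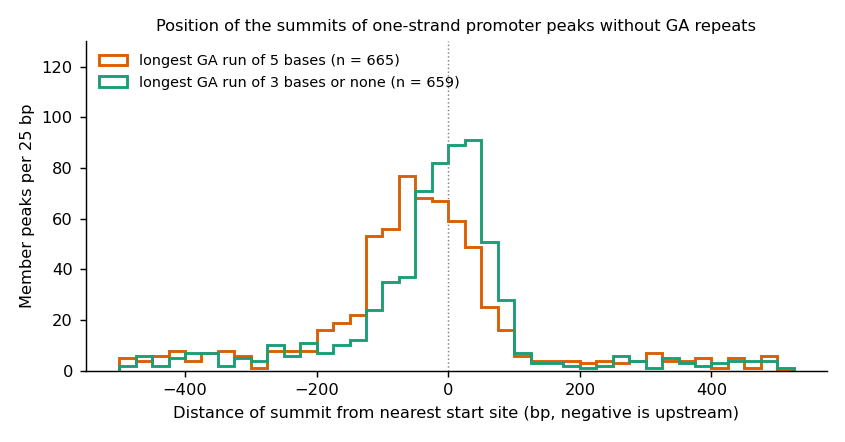
Number of member peaks per 25 bp of distance between summit and nearest start site, in bp with negative values upstream, for the 665 members with a GA run of 5 (orange) and the 659 with a run of 3 or none (green). The orange summits are shifted upstream, with medians of -43 and -6 bp.

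By annotation, 518 member summits (39.1%) lay in a 5′ UTR, 459 (34.7%) in intergenic sequence, 313 (23.6%) in an intron, 27 in coding sequence and 7 in a 3′ UTR. Introns held 45.3% of the one-strand peaks with a GA run (interval 41.8% to 48.9%, against 21.4% to 26.0% for members). The nearest start site was the most upstream one of its gene for 62.7% of members (60.1% to 65.3%), against 48.0% (44.4% to 51.6%) with a GA run and 77.9% at divergent promoters. This outcome is fixed where the gene has 1 start position. Such genes were nearest to 38.3% of members and 27.5% of peaks with a GA run, and the shares were not corrected for this. Members were spread over the arms, with 258 on 2L, 296 on 2R, 258 on 3L, 326 on 3R, 6 on arm 4 and 180 on X. In that order they were 19.5%, 22.4%, 19.5%, 24.6%, 0.453% and 13.6% of members. Protein-coding start sites were 18.8%, 20.5%, 19.3%, 23.6%, 0.738% and 17.0% on the same arms. Arm X held 13.6% of members (interval 11.9% to 15.5%), 15.1% of the IDR list and 17.4% of the peaks with a GA run (14.8% to 20.3%). The share of members on X was thus below that of start sites, while the interval of the peaks with a GA run held it.

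Members were weaker than the one-strand peaks with a GA run. The deposited signal of the pooled list, the authors' own value with its scaling not given in the sources used here, had a median of 129 in members, with quartiles of 103 and 190. The median was 180 in peaks with a GA run, with quartiles of 123 and 292, and 120 at divergent promoters, so the ratio of members to GA peaks was 0.713. Signal differed with position. It had a median of 150 in the 368 members 51 to 200 bp upstream, 128 in the 580 within 50 bp and 114 in the 150 members 51 to 200 bp downstream. The 140 members more than 200 bp upstream had a median of 133 and included the strongest of all.

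That strongest member lay upstream of Coq2, whose product makes coenzyme Q, with a summit 394 bp from the start site. Its signal was 4992 in the pooled list, 3827 in replicate 3 and 1242 in replicate 4, first in rank in all 3. Smg5, a factor of nonsense-mediated mRNA decay, followed with 2714 pooled, 2021 in replicate 3 and 758 in replicate 4, where it ranked 5 in both. Both genes stood among the top 5 peaks of each replicate.

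The gene gus, which encodes an adaptor of ubiquitin ligases, had 2 members among the 25 strongest, with pooled signals of 1997 and 1010. Gnpat, an enzyme of ether lipid synthesis, had 1564 pooled, 1137 in replicate 3 and 422 in replicate 4, with its summit in the 5′ UTR. CG8617 (1560), CG33169 (1204) and tun (1181) completed the 7 strongest, none of which held GAGAG in its window. Of the 25 strongest, 12 held it, against 665 of all 1324 members (50.2%).

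The next members by signal lay at genes of varied function, among them CG31522, a fatty acid elongase (1173), sbb, a transcriptional corepressor (1121), and Nepl8, a neprilysin-like peptidase (1072). Zasp52, a protein of the muscle Z disc, had 1002, and Mrp4, an ABC transporter, had 924. The signal was 826 at rhea, which encodes talin, 802 at bark, a protein of tricellular junctions, and 794 at jbug, a filamin. Others of the 25 were mtgo (865), CG10555 (862), yuri (837), CG18011 (811), Dpm3 (778), sowah (769), jim (725) and Alh (720).

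Both replicates held most members. A summit of the relaxed list of 30000 regions lay within 100 bp for 1299 members in replicate 3 (98.1%) and for 1165 in replicate 4 (interval 86.1% to 89.6%), and for 1141 in both (86.2%, interval 84.2% to 87.9%). The share in both was 88.5% (86.0% to 90.6%) for peaks with a GA run, 82.9% at divergent promoters and 26.5% for the weaker peaks. The weaker peaks were set apart by their absence from the IDR list, which rests on how alike the replicates rank each peak. Their low share thus follows in part from that choice. Among the 4175 strongest regions of each replicate, 720 members were in both, 428 in replicate 3 alone, 128 in replicate 4 alone and 48 in neither. The pooled list thus lay closer to replicate 3.

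Across the 1141 members matched in both replicates, the rank correlation of signal (Spearman) was 0.447, and Pearson's r of log2 signal was 0.545. Peaks with a GA run had a rho of 0.657 over 652 matched peaks. These values describe peaks of the same pair of libraries, and the peaks are not independent samples. The median signal of matched members was 104 in replicate 3 and 40.8 in replicate 4, so the replicates were compared by rank.

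**Figure D2:**
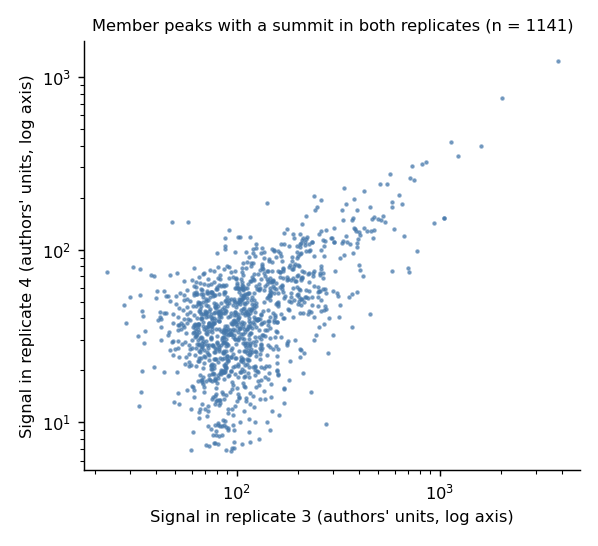
Deposited signal of each of the 1141 members with a summit in both replicates, replicate 3 on the x axis and replicate 4 on the y axis, both in the authors' units on log axes. The strongest members lie along 1 line, while members near the medians of 104 and 40.8 form a round cloud.

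The 720 members that were strong in both replicates held GAGAG at 56.3% (52.6% to 59.8%), against 45.8% (41.1% to 50.5%) of the 428 strong in replicate 3 alone. GATA sites were at 12.4% and 23.8% of these members, with intervals that did not overlap. Of the 128 members strong in replicate 4 alone, 35.9% (28.1% to 44.5%) held GAGAG and 14.1% (9.08% to 21.1%) a GATA site, and of the 48 strong in neither, 37.5% and 18.8%. GAGAG was thus most frequent in members strong in both replicates, while the high share of GATA sites stood in members strong in replicate 3 alone. The median pooled signals of these groups were 170 in both, 110 in replicate 3 alone, 98.1 in replicate 4 alone and 89.7 in neither. Strength thus differed between the groups, and its part in these shares was not tested. The widest gaps between ranks were at orion, CG2003, HmgZ, pippin and kmr. The orion member, with pooled signal 272, ranked 368 in replicate 3 and 18979 in replicate 4. CG2003 ranked 6512 and 156, HmgZ 4934 and 155, pippin 23385 and 754, and kmr 13861 and 657. Of these 5, orion was high in replicate 3 and the other 4 in replicate 4.

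Members near the limits of the rule were ordinary in strength. Nearest inside the limit of 500 bp were Ak3 (500 bp downstream, signal 103), CG6118 (500 bp upstream, 102) and RhoGEF64C (498 bp upstream). Nearest outside were gem (501 bp upstream, 153), lawc (502 bp upstream, 333) and ex (503 bp downstream, 107). The 33 members more than 450 bp from a start site had a median signal of 125, and the 45 peaks just beyond, up to 550 bp, had 141. On the GA limit, the 408 one-strand peaks with a run of exactly 7 had a median of 162, the 665 members with a run of 5 had 145, the 645 with a run of 3 had 119 and the 14 with none had 124. The strongest peaks with a run of 7 were mura (1846), bun (917) and scb (908), and the strongest members with a run of 5 were CG31522, sbb and Zasp52.

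Short GA sequences marked the members although the rule had removed the long ones. GAGAG was present on either strand in 665 of 1324 member windows of 201 bases (50.2%, 47.5% to 52.9%). It was present in 20.8% of 1241 flanks of the same length, taken 1000 bp upstream and clear of other IDR summits, 29.4 points less (Newcombe interval 25.9 to 32.9). The flanks were not screened for long GA runs, and 2.42% of them held one. Weaker peaks chosen by the same rule held GAGAG at 25.8%, a difference of 24.4 points (21.4 to 27.3). Windows centred on 18350 protein-coding start sites without a long GA run held it at 21.3%, a difference of 28.9 points (26.2 to 31.7). Members also held GAGAG more often than peaks at divergent promoters (35.8%, difference 14.4 points, 7.59 to 20.8), which were not screened either. These differences compare peak windows within 1 pooled list and were not tested across samples.

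The match lay near the summit. The median distance from summit to the nearest GAGAG was 24 bp, and 58.9% of the 665 members with one had it within 30 bp, against 32.1% of the 218 members with a GATA site. The share of members with GAGAG fell with signal, from 61.9% (56.6% to 67.0%) of the 331 strongest to 55.9%, 44.4% and 38.7% (33.6% to 44.0%) of the 331 weakest. The longer word AAGAGAGC, shown above at rhea and sima, went from 15.7% to 3.32% over the same groups.

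**Figure D3:**
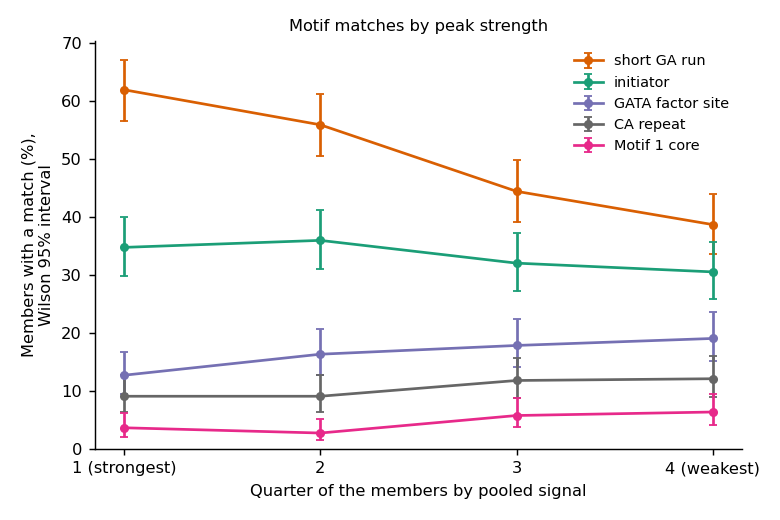
Percent of members with a motif match in the 201-base window, in 4 groups of 331 members ordered by pooled signal, with Wilson 95% intervals as bars. The short GA run (GAGAG) goes from 61.9% in the strongest group to 38.7% in the weakest, and the GATA factor site from 12.7% to 19.0%.

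A search of all 8-base words gave the same picture. AAGAGAGC had the largest difference, in 115 members (8.69%), 0.645% of flanks, 1.97% of weaker peaks and 16.4% of peaks with a GA run. Of the 20 words with the largest differences, 14 held GAGAG or the related GAGCG. In all, 943 members (71.2%) held GAGAG or GAGCG, against 35.9% of flanks and 45.5% of weaker peaks. GAGCG alone was at 57.7% of members (55.0% to 60.3%), 22.1% of flanks and 84.3% of peaks with a GA run. These words were ranked on the same windows, so they are a description.

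Initiator matches were also more frequent at member summits than in flanks or weaker peaks. TCAGTC or TCAGTT, the initiator letters searched on both strands, was present at 33.3% of members (30.8% to 35.9%), 15.7 points above the flanks (12.3 to 18.9), 10.2 points above weaker peaks (7.45 to 13.0), and 6.44 points above peaks with a GA run (2.30 to 10.5). Windows centred on start sites without a long GA run held the match at 30.4%, a difference of 2.93 points (0.36 to 5.60). Over all protein-coding start sites it was 30.6%, a difference of 2.71 points (0.14 to 5.37). Most of the excess over flanks was thus shared by promoter windows in general. Position moved with the comparison to weaker peaks, since 43.8% of member summits and 25.1% of weaker ones lay within 50 bp of a start site. In a narrower search placed on the start site, TCAGT on the sense strand within 10 bp was found at 336 of 1289 start sites nearest to members (26.1%, 23.7% to 28.5%). It was found at 27.5% for peaks with a GA run, 15.5% (14.4% to 16.5%) for weaker peaks, 15.4% at divergent promoters and 13.1% (12.7% to 13.6%) of all 19253 protein-coding start sites. The intervals of member promoters and GA promoters (24.4% to 30.9%) overlapped, and both lay above that of start sites in general.

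TATA boxes were less frequent. TATAAA or TATATA was found 20 to 40 bp upstream of 5.90% (4.74% to 7.32%) of the start sites nearest to members, against 8.26% (7.88% to 8.66%) of all start sites. In summit windows, the longer words TATAAAAA, TATAAAAG, TATATAAA and TATATAAG stood at 5.74% of members and 8.62% of flanks.

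Motif 1 and the DRE, the elements of broadly expressed genes, were each found at a small share of members. Motif 1 core (GGTCACAC) was present at 61 members (4.61%), 3 of 1241 flanks (0.242%), 3.71% of weaker peaks and 5.68% of all start sites. It was rarer at peaks with a GA run (0.814%, 0.374% to 1.76%) and more frequent at divergent promoters (13.3%, 9.61% to 18.2%). Within the class it was more frequent where GAGAG was missing, at 6.83% (5.14% to 9.02%) of those 659 members and at 2.41% (1.49% to 3.87%) of the 665 with GAGAG. The DRE (TATCGATA) was present at 36 members (2.72%, 1.97% to 3.74%), 1.13% of flanks, 3.39% of weaker peaks, 0.814% of peaks with a GA run and 7.92% of divergent promoters. Its share over all start sites was 6.45%, so member summits held fewer DREs than promoters in general.

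Dbp73D, an RNA helicase gene printed above with its Motif 1 core, had a signal of 518 pooled, 331 in replicate 3 and 169 in replicate 4. Dpm3, a subunit of dolichol-phosphate mannose synthase and the strongest member with a DRE, had 778 pooled, 710 in replicate 3 and 74.1 in replicate 4, with ranks of 39 and 755. It thus ranked far higher in replicate 3. CG9915 had 562 pooled, 468 in replicate 3 and 118 in replicate 4.

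Repeats and a metal response element were also more frequent at members than in their flanks. CACACACA, also read as TGTGTGTG, was at 10.5% of members and 3.38% of flanks, 7.11 points more (5.19 to 9.08), and at 17.4% of peaks with a GA run. That difference was 13.6 points in windows of 250 bp either side of the summit, 3.10 in windows of 50 bp and 4.71 among the stronger IDR peaks. TGCACNC or TGCGCNC, the core of the element that the metal-responsive factor MTF-1 binds, was at 26.8% of members and 13.9% of flanks, 13.0 points more (9.87 to 16.0), and at 33.9% of peaks with a GA run. Some of its words share letters with GAGCG. The E-box CAGCTG was at 14.1% of members and 9.19% of flanks, 4.94 points more (2.46 to 7.41). With flanks 2000 bp upstream it was 2.95 points more, and against all protein-coding start sites (13.4%) the difference was 0.72 points, with an interval that held 0 (-1.12 to 2.75). Unlike GAGAG, CA repeats were not more frequent among the stronger members, with 9.06% of the 331 strongest and 12.1% of the 331 weakest.

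Some factor sites were rarer at members than in flanks. GATA sites (AGATAA or TGATAA) were at 16.5% of members and 23.6% of flanks, a difference of -7.14 points (-10.2 to -4.05). The nuclear receptor site AGGTCA was at 2.27% and 5.64% (-4.95 to -1.88 points), and the Stat92E site TTCNNNGAA at 4.15% and 6.85% (-4.51 to -0.93 points). Of the 28 motifs searched, 10 were higher at members than in flanks, 6 were lower, and 12 had an interval that held 0. The 12 included the sites searched for AP-1, CRE, heat shock factor and FOXO. The GC content of windows had a median of 49.8% in members and 45.3% in weaker peaks, and its part in these differences was not tested.

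κB sites, the sequences that NF-κB proteins recognise, were found at few members. The broad κB motif was present at 22 members (1.66%, 1.10% to 2.50%), against 2.34% of flanks (difference -0.68 points, -1.82 to 0.42), 1.76% of weaker peaks and 1.33% of all start sites. The interval of each of these 3 differences held 0. Members with one had a median signal of 134, and the others 129. Gnpat was the strongest of the 22, and LpR2, RpS4 and CG4374 are printed above. LpR2, a lipophorin receptor of lipid uptake, had 194 pooled, 159 in replicate 3 and 38.1 in replicate 4. The site GGGAAA, one side of a κB site, was at 11.5% of members and 14.0% of flanks.

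**Figure D4:**
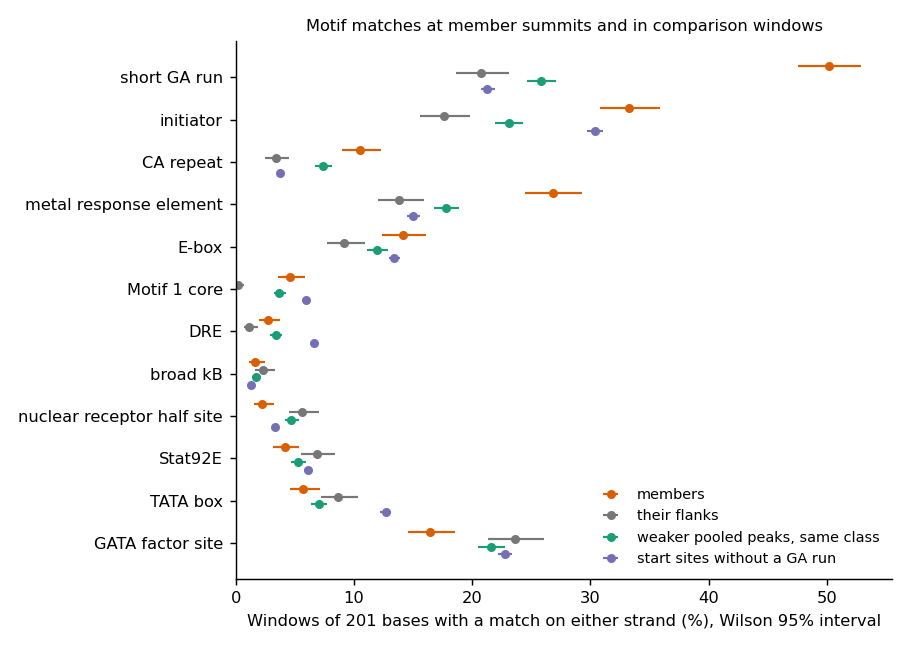
Percent of windows of 201 bases with a match on either strand (x axis) for 12 motifs (y axis) at members, their flanks, weaker pooled peaks of the same rule and start sites without a long GA run, with Wilson 95% intervals. Short GA runs at members (50.2%) stand apart from the other 3 sets (20.8% to 25.8%), while κB sites are between 1.33% and 2.34% in all of them.

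Members lay at 1207 of 13945 protein-coding genes, a background of 8.66%. Of these genes 1085 had 1 member, 102 had 2 and 20 had 3 or more. A one-strand peak with a GA run was also present at 166 of them. This is 13.8% of the genes with a member, against 4.8% of all protein-coding genes, and 24.8% of the genes with a GA peak. A peak at a divergent promoter was also present at 45 genes with a member (3.73%), near the 3.41% of all protein-coding genes. Genes with a member were longer and had more start sites than protein-coding genes in general. Their median length was 7720 bp, against 2166 bp for all protein-coding genes and 13233 bp for genes with a GA peak. A single start position was annotated for 41.8% of them and for 73.5% of all genes. A gene with more start sites offers more places for a peak, and the counts below were not corrected for this.

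Svil, which encodes supervillin, an actin-binding protein, had the most members, 5 over its 16 start positions, with signals from 87.8 to 184. Gdap2 had 4, with signals from 124 to 307. The ecdysone receptor gene EcR had 3, from 125 to 487, and Eip75B, a nuclear receptor gene that ecdysone induces, had 3, from 92.2 to 287. Other genes with 3 included Hnf4, a nuclear receptor of lipid metabolism, sgg, the kinase GSK3, grh, an epidermal transcription factor, mam, a Notch coactivator, and Xrp1, a stress-induced transcription factor.

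**Figure D5:**
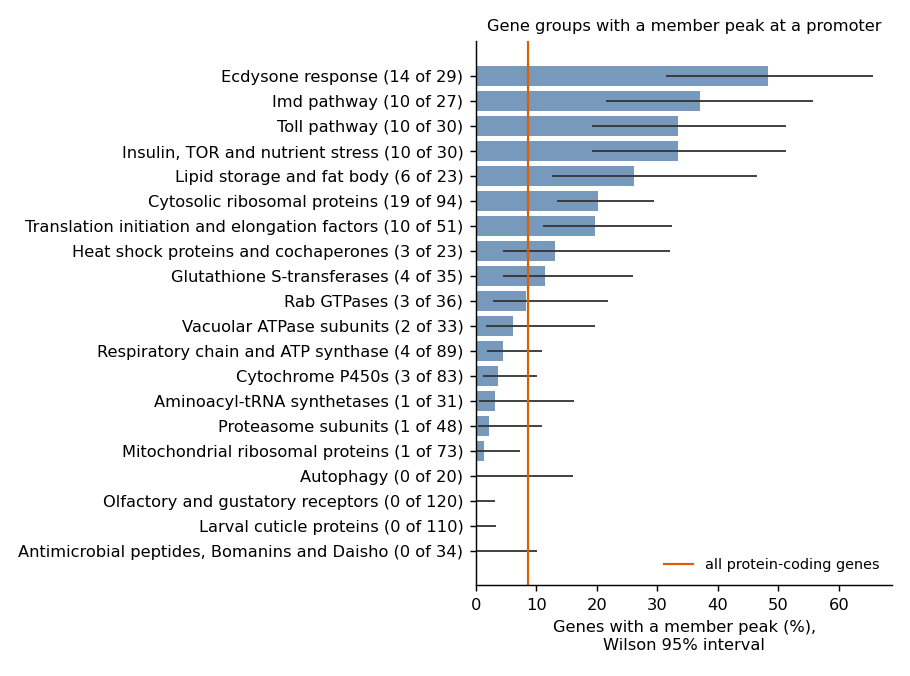
Percent of the genes of each list with a member peak within 500 bp of a start site (bars from 0, Wilson 95% intervals as lines), with the count beside each name. The orange line is the share over all 13945 protein-coding genes, 8.66%, and the ecdysone, Imd, Toll, insulin, lipid, ribosomal protein and translation factor lists lie above it with their intervals, the last of these not without replicate 3.

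Components of the Toll pathway, through which Dif is activated, had members at 10 of 30 genes (33.3%, 19.2% to 51.2%), against 8.66% of all genes. One-strand peaks with a GA run lay at 1 of the 30, against 4.8% of all genes. The median length of these 30 genes was 3003 bp, with a mean of 1.43 start positions, against 1.41 over all genes. The ligand gene spz had a signal of 299 pooled, 238 in replicate 3 and 73.8 in replicate 4. Upstream of the ligand, Hayan, a serine protease, had 214 and modSP, another serine protease of the cascade, had 150, while GNBP3, a recognition protein for fungi, had 127. Hayan ranked 1868 in replicate 3 and 419 in replicate 4, and modSP had no summit in replicate 4 within 100 bp.

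The adaptor gene Myd88 had 181 pooled, 146 in replicate 3 and 35.1 in replicate 4. The gene of the inhibitor Cactus, cact, had 185 pooled, 169 in replicate 3 and 40.2 in replicate 4, in an intron 128 bp downstream of a start site. Pli, the Pellino gene, had 158, with ranks of 1277 in replicate 3 and 18288 in replicate 4, and Ulp1, a SUMO protease, had 323. Adaptor, inhibitor and ligand genes thus carried members, with values above the class median of 129.

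Dif itself, the tagged gene, had a member in an intron 30 bp upstream of a start site, with 386 pooled, 303 in replicate 3 and 110 in replicate 4. Its neighbour dl, which encodes Dorsal, had 2 members, the stronger with 312 pooled, 141 in replicate 3 and 187 in replicate 4, so it ranked 1297 in replicate 3 and 72 in replicate 4. The Dif sequence of the transgene is present in these animals beside or in place of the native copy, and its part in the Dif signal was not tested.

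Genes of the Imd pathway, which acts through a different NF-κB protein against bacteria, had members at 10 of 27 (37.0%, 21.5% to 55.8%). A GA peak lay at 0 of them, against 4.8% of all genes, and 27 genes are too few to show a lack of GA peaks. This list had a mean of 2.04 start positions per gene. The receptor gene PGRP-LC had 105 pooled, 65.8 in replicate 3 and 43.7 in replicate 4, and PGRP-LB, an amidase that degrades the ligand, had 103. The kinase gene Tak1 had 249 pooled, 150 in replicate 3 and 85.3 in replicate 4, and key, the IKKγ gene, had 146. Rel, the gene of that protein, Relish, had 204 pooled, 136 in replicate 3 and 73.4 in replicate 4 in its 5′ UTR, 8 bp from a start site.

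The other 5 genes of the list with a member were ben (417 pooled, 357 in replicate 3 and 53.3 in replicate 4) and eff (176), both ubiquitin-conjugating enzymes, CYLD (190) and scny (133), both deubiquitinases, and dnr1 (233), an inhibitor of the pathway. eff and PGRP-LB had no summit in replicate 4 within 100 bp. CYLD ranked 913 in replicate 3 and 12861 in replicate 4, and scny 1572 and 18339.

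The effector genes showed a different count. Of 34 genes for antimicrobial peptides, Bomanins and Daisho, 0 had a member. The Wilson interval reached 10.2%, which includes the background of 8.66%. These genes are short, with a median of 440 bp, and have few start sites, with a mean of 1.09. At this list size a depletion was not detectable.

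Ecdysone response genes had the highest share of the 20 lists. Members lay at 14 of 29 (48.3%, 31.4% to 65.6%) and GA peaks at 12 of 29 (41.4%, against 4.8% of all genes). These genes were long, with a median of 19955 bp and a mean of 2.38 start positions. The transporter gene E23 had 677 pooled, 499 in replicate 3 and 151 in replicate 4. tai, a coactivator of the ecdysone receptor, had 523 pooled, 441 in replicate 3 and 129 in replicate 4. EcR had its strongest member 234 bp upstream of a start site in an intron, with 487 pooled, 337 in replicate 3 and 229 in replicate 4. Eip74EF, an Ets factor gene that ecdysone induces early, had 478 pooled, 402 in replicate 3 and 127 in replicate 4. All of these ranked within the top 250 of both replicates.

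In 13 of the 14 ecdysone genes the strongest member held GAGAG, against 665 of 1324 members overall and 61.9% of the 331 strongest. These ecdysone members had a median signal of 251, against 129 in the class, and the part of strength was not tested. The exception was ImpE2, with 84.6, near the lowest signal of the class, 84.1. The remaining ecdysone genes with a member were kis (269), Hr38 (264), MsrA (239), Hr4 (216), ftz-f1 (147), Eip93F (137), Eip63E (131) and Hr39 (102). kis had no summit in replicate 4 within 100 bp.

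Insulin, TOR and nutrient stress genes had members at 10 of 30 (33.3%, 19.2% to 51.2%). GA peaks lay at 9 (30%, against 4.8% of all genes). Among them sima, the fly HIF-α gene, had 562 pooled, 394 in replicate 3 and 169 in replicate 4. foxo, the forkhead factor that insulin signalling holds out of the nucleus, had 258 pooled, 203 in replicate 3 and 53.6 in replicate 4. Myc, a driver of growth, had 206 pooled, 160 in replicate 3 and 56.1 in replicate 4. In 7 of the 10 genes the strongest member held GAGAG. It was at 50.2% of all members and at 55.9% of the 331 members with signals from 129 to 190. The median of the 10, 169, lay in that group, and 10 genes are too few to set the list apart from these shares.

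Lipid storage and fat body genes had members at 6 of 23 (26.1%, 12.5% to 46.5%). GA peaks also lay at 6 (26.1%, against 4.8% of all genes). Hnf4 had 158 pooled, 134 in replicate 3 and 37.8 in replicate 4, and Lsd-2, a perilipin of lipid droplets, had 158 pooled, 86.6 in replicate 3 and 77.1 in replicate 4. Lpin, a phosphatidate phosphatase, had 136 and SREBP, a factor of lipid synthesis, had 93.7. The start site nearest to the Lpin member was that of kermit. With each member given to its nearest start site only, the list had 5 of 23 (21.7%, 9.66% to 41.9%), against 8.45% of all genes. The lower bound of the interval was above 8.66%, and the list held genes with a mean of 2.09 start positions.

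Ribosomal protein genes carried members that mostly lacked GAGAG. Of 94 cytosolic ribosomal protein genes, 19 had a member (20.2%, 13.3% to 29.4%), 0 a one-strand peak with a GA run and 14 a peak at a divergent promoter, where the backgrounds were 8.66%, 4.8% and 3.41%. Their signals were low, with a median of 120 over the 19, and RpS28a was the highest at 240. Among the 620 members of the stronger IDR peaks the share was 3.19% (1.09% to 8.97%), where that of all genes was 4.21%, so the list no longer stood above all genes there. The RpS28a summit lay 485 bp from a start site, and the start site nearest to it was that of Mgat2. With each member given to its nearest start site only, the list had 18 of 94 (19.1%, 12.5% to 28.3%), against 8.45% of all genes. RpL23A had 150 pooled, 101 in replicate 3 and 64.4 in replicate 4. RpS4 had 142 pooled, 97.7 in replicate 3 and 38.1 in replicate 4. RpL30 had 132 pooled and 120 in replicate 3, with no summit in replicate 4 within 100 bp. In 2 of the 19 genes the strongest member held GAGAG, RpS4 and RpS29, and RpS29 had no summit in replicate 4 within 100 bp. GAGAG was at 665 of all 1324 members. It was at 44.4% of the 331 members with signals from 103 to 128, the group that holds this list's median. The part of strength was not tested.

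Translation initiation and elongation factors had members at 10 of 51 (19.6%, with an upper bound of 32.5% and a lower bound above 8.66%). GA peaks lay at 3 (5.88%, near the 4.8% of all genes). Without replicate 3, that is among the strongest peaks of replicate 4 alone, the share was 13.7% (6.81% to 25.7%), an interval that holds the 8.76% of all genes. eIF1A had 367 pooled, 338 in replicate 3 and 93.0 in replicate 4. eEF1alpha1 had 310 pooled, 253 in replicate 3 and 57.1 in replicate 4, and eIF4A had 226 pooled, 186 in replicate 3 and 66.8 in replicate 4. eIF2A had 154 pooled, with both Motif 1 core and the DRE in its window. The strongest member held GAGAG in 4 of the 10 genes, near the 50.2% of all members.

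Other gene groups of broad expression were near or below the background of 8.66%. Members lay at 1 of 73 mitochondrial ribosomal protein genes, mRpL13 (123), at 1 of 48 proteasome subunits, Prosbeta7 (87.8), and at 1 of 31 aminoacyl-tRNA synthetases, GluProRS (138). Vacuolar ATPase genes had 2 of 33, with Vha13 at 256 and Vha16-1 at 120. Respiratory chain and ATP synthase genes had 4 of 89, with RFeSP at 215, ATPsynB at 123, UQCR-C2 at 90.6 and UQCR-Q at 86.1. Rab GTPases had 3 of 36, with Rab5 at 143, Rab32 at 101 and Rab1 at 92.4. Of these 6 lists, the mitochondrial ribosomal protein list had an upper bound below the background, 7.36%.

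The lists of stress and detoxification genes had intervals that held the background. Glutathione S-transferases had members at 4 of 35 (4.54% to 26.0%), GstO3 (153), GstE7 (150), GstE11 (145) and GstE3 (127), and all 4 held GAGAG. Heat shock proteins and cochaperones had 3 of 23 (4.54% to 32.1%), Hsp23 (151), Hsc70-4 (130) and Hsp83 (105), of which 0 held GAGAG. All members held it at 50.2%, and 4 and 3 genes are too few to set these lists apart from that share. Cytochrome P450 genes had 3 of 83 (1.24% to 10.1%), Cyp6d2 (113), Cyp6d4 (103, with no summit in replicate 4 within 100 bp) and Cyp6a23 (90.0). No member lay at any of 120 olfactory and gustatory receptor genes, where the Wilson interval reached 3.10%. None lay at any of 110 cuticle protein genes (up to 3.37%) or at any of 20 autophagy genes (up to 16.1%). The receptor and cuticle limits were below 8.66%, while the autophagy list was too short to differ from it.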

How the data were processed

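The authors deposited peak lists of anti-GFP ChIP-seq in dm6 and dm3; the dm3 lists were not used here. Per the file headers and the listings deposited with them, each relaxed list (replicate 3, replicate 4, pooled) holds 30000 peaks and background regions as input for IDR, and a further list holds the 4175 peaks past the IDR threshold. The signal of each peak and its −log10 q-value are the values the authors deposited. The signal was used to rank and describe peaks within a list, and q-values were not used. Read depth is unknown; aligner, peak caller and signal scaling: not given in the sources used here.

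Summits were placed on the Release 6 assembly with Ensembl release 115 gene models; 99.8% of 30593 annotated start codons read ATG. Windows of 201 bases were searched on both strands for 28 motifs. Shares have Wilson intervals and differences Newcombe intervals at the 95% level, which cover counting error only. Replicates were matched within 100 bp. No test was run: there is 1 group, and peaks and genes are not replicates. Python 3.11.15, NumPy 2.4.6, SciPy 1.17.1 and Matplotlib 3.10.9 were used, and counting was tested on simulated windows. Named genes are those of the 25 strongest members, the strongest of each list or motif, those at the limits of the rule, and the 5 with the widest gap in replicate ranks; genes with 3 or more members and further genes of the lists were named after their values were seen; 1 gene that this rule names is not reported here. Printed sequence came from the strongest such members off arm 2R whose stretch touches no UTR. The members, motifs and gene lists were chosen with earlier results of these data known. Alternatives changed the TSS window, the GA run, the flank, the motif window, the matching distance, the replicates and the part of the list used.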

Additional observations from a re-analysis of the deposited data

How the results depend on the processing

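Directions of the motif differences for GAGAG and the initiator were kept in all alternatives run, while sizes moved. GAGAG at summits minus flanks, 29.4 points, was 25.5 with flanks 1000 bp downstream, 25.4 in windows of 50 bp either side and 36.6 among the stronger IDR peaks, and ran from 25.7 to 29.5 when 1 replicate was left out. The initiator difference, 15.7 points, was 11.4 in windows of 50 bp and 19.9 among the stronger peaks. Refusing GA runs of 5 left 659 members at 640 genes, with 52.4% upstream, and refusing only runs of 9 gave 63.7% upstream. The stronger IDR peaks held 620 members at 587 genes, with 69.4% upstream and a signal ratio to GA peaks of 0.862. They held a member at 4.21% of all genes, 3.19% of the ribosomal protein genes, 9.80% of the translation factors and 25.9% to 37.9% of the Toll, Imd, ecdysone and insulin lists. Without replicate 3 the interval of the translation factors held the share of all genes and that of the proteasome list (0 of 48) was below it. Without replicate 4 the heat shock list (26.1%, 12.5% to 46.5%) was above it. With either replicate left out, cytochrome P450 genes (2.41%) were below it. Members with a summit in both replicates were 94.8% within 200 bp, 68.1% within 50 bp and 54.4% among the strongest regions of each replicate. The κB difference was 0.32 points with flanks 2000 bp upstream, against -0.68, and both intervals hold 0. The causes of these shifts were not tested, beyond the smaller lists that stricter settings leave.

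With 2 replicates of 1 group, no control libraries and unknown read depth, differences between peak classes could not be tested across samples. The pooled list lies closer to replicate 3. Whole larvae mix tissues, and a peak near a gene does not show that Dif regulates it. No paired analysis was possible because the labels give 1 group.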
